A study of Mus musculus with 12 samples.

Results

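MicroRNA-669c-3p (miR-669c-3p), miR-669a-3-3p and miR-669j, made from a large miRNA cluster within the mouse gene Sfmbt2, were followed on 12 small RNA arrays of primary mouse aortic smooth muscle cells (MASMC). They were read by 10 of the 9709 miRNA probes of the array. In the cells treated with a siRNA against OCT4 the mean normalized signal of miR-669c-3p was 14.4-fold lower than with a non-targeting siRNA, that of miR-669a-3-3p 4.79-fold lower and that of miR-669j 1.76-fold lower, all with vehicle. These differences are a description, because the miRNAs had been chosen by them. Their size depends on the background treatment. With a correction that compresses dim signals (normexp) the log2 differences were -1.91 to -2.20 for the miR-669c-3p probes. For miR-669a-3-3p they were then -0.23 and -0.53, and for miR-669j -0.05 to -0.08. With POVPC all 10 probes had a higher mean in the control cells, by 0.27 to 0.66 on the log2 scale, but none passed the test.

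The probes were chosen by their identifiers, ASMM10SMR20MIRNA100004750TV1 to ASMM10SMR20MIRNA100004754TV1 and ASMM10SMR20MIRNA100002795TV1 to ASMM10SMR20MIRNA100002799TV1. The first 5 were taken to be miR-669c-3p when the choice was made. The probe lists supplied with the study give another name to the first of them: ASMM10SMR20MIRNA100004750TV1 and ASMM10SMR20MIRNA100004751TV1 belong to miR-669a-3-3p, and the other 3 to miR-669c-3p. The names of these lists were used here, so the 10 probes read 3 miRNAs, with 3 probes for miR-669c-3p, 2 for miR-669a-3-3p and 5 for miR-669j. The lists hold 3 more probes of miR-669a-3-3p and 2 more of miR-669c-3p, described apart from the 10.

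The cells were transfected for 48 h, in serum-free medium, with siRNA directed at OCT4 (siOCT4) or a non-targeting pool (siNT), and then treated for 24 h with 10 μg/mL of the oxidized phospholipid POVPC or with its vehicle dimethyl sulfoxide (DMSO). These 4 groups of 3 arrays are called siNT-DMSO, siNT-POVPC, siOCT4-DMSO and, with both siOCT4 and the lipid, siOCT4-POVPC. OCT4, encoded by Pou5f1, is a transcription factor of pluripotent cells, and POVPC is a component of oxidized lipoproteins in atherosclerotic lesions. The labels do not say that the replicates were separate cultures, so the p-values measure the spread between these samples, which may be technical. Neither Pou5f1 mRNA nor smooth muscle markers were analysed here, so the knockdown and the cell type were taken from the labels.

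The 6 siNT arrays and siOCT4-DMSO replicates 1 and 2 lay on 1 slide, and siOCT4-DMSO replicate 3 with the 3 siOCT4-POVPC arrays on another. The median unnormalized signal was 24.1 on siOCT4-DMSO replicate 3 and 5.58 to 8.73 on the other 11 arrays. That array stood apart, and the values without it are given beside the results that rest on it. Between 6054 and 9575 miRNA probes were well above background per array, and no spot was saturated. Because whole cultures were measured, fewer cells that make a miRNA and less of it per cell cannot be told apart.

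A miRNA guides an Argonaute protein to messenger RNAs, mainly by pairing of its seed, bases 2 to 8 from the 5′ end, and the bound messages are translated less or degraded. The Sfmbt2 cluster is found in rodents, arose by repeated duplication and is known chiefly from the placenta, where it is imprinted and expressed from the paternal allele. Its miRNAs are named miR-297, miR-466, miR-467 and miR-669. In the RefSeq annotation of mouse (GRCm38.p6) 71 miRNA genes lie within Sfmbt2, namely 29 of the Mir669 family, 23 of Mir466, 14 of Mir467 and 5 of Mir297. Mir669a-3 is the 15th of them along the chromosome, Mir669j the 21st and Mir669c the 57th, so the genes of the 3 miRNAs are not neighbours.

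The mature sequences decide which probes could capture which miRNA and are shown with the seed in capitals, as the study's lists give them. The last is a near copy that the lists name apart.
miR-669c-3p: uACACACAcacacacaaguaaa
miR-669a-3-3p: aCAUAACAuacacacacauguau
miR-669j: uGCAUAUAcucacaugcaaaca
miR-669a-3p: aCAUAACAuacacacacacguau

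The 3 miRNAs had 3 different seeds. Among the 20 miRNAs of the miR-466, miR-467 and miR-669 families in the study's lists, the seeds of miR-669c-3p and miR-669j were each found once, and that of miR-669a-3-3p was shared with miR-669a-3p. These 2 were identical at 22 of 23 bases and differed by U19C, counted from the 5′ end of miR-669a-3-3p. Beyond the 20, the lists also name miR-669i with the seed of miR-669j and miR-669o-3p with that of miR-669a-3-3p. The longest run of bases that miR-669c-3p shared with another of the 20 was 13, with miR-669p-3p, and with miR-669j it was 4. For miR-669j the longest shared run was 8 bases, with miR-466g. miR-669j therefore overlapped least with its relatives in sequence, and signal at the miR-669a-3-3p probes may include miR-669a-3p, which cannot be told apart here.

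Each probe began with 1 G that does not belong to the miRNA and went on with the complement of the miRNA's 3′ end. The shortest and longest of the chosen probes of each miRNA show how they differed, with the bases beyond the shortest in capitals.
ASMM10SMR20MIRNA100004753TV1, miR-669c-3p: gtttacttgtgtgtgtgtg
ASMM10SMR20MIRNA100004754TV1, miR-669c-3p: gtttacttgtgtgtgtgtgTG
ASMM10SMR20MIRNA100004750TV1, miR-669a-3-3p: gatacatgtgtgtgtatgtt
ASMM10SMR20MIRNA100004751TV1, miR-669a-3-3p: gatacatgtgtgtgtatgttA
ASMM10SMR20MIRNA100002798TV1, miR-669j: gtgtttgcatgtgagtat
ASMM10SMR20MIRNA100002796TV1, miR-669j: gtgtttgcatgtgagtatATGC

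The miR-669c-3p probes were thus 19, 20 and 21 bases long, the miR-669a-3-3p probes 20 and 21, and the miR-669j probes 18, 19, 20, 21 and 22. Probes of 1 miRNA nest in each other and are complementary to the same miRNA, so they are not independent replicates. A probe is called below by its miRNA and its length. Levels are log2 of the quantile-normalized signal, and the level of a miRNA on an array is the mean over its chosen probes; signals of different probes depend on the probe and are not compared.

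miR-669c-3p had a level of 8.70, 8.77 and 8.91 on the siNT-DMSO arrays and of 9.46, 9.33 and 8.99 on the siNT-POVPC arrays. On the siOCT4-DMSO arrays it was 5.29, 5.08 and 4.47, and on the siOCT4-POVPC arrays 5.12, 5.06 and 5.07. The 6 siNT arrays lay above the 6 siOCT4 arrays without overlap, and the 3 siNT-POVPC arrays lay above the 3 siNT-DMSO arrays. The 2 siOCT4 groups overlapped, and the lowest value of all 12 was that of siOCT4-DMSO replicate 3, the bright array. All 3 probes were well above background on all 12 arrays.

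miR-669a-3-3p was at 5.32, 5.20 and 5.45 on the siNT-DMSO arrays and at 6.08, 5.97 and 5.72 on the siNT-POVPC arrays. It was at 3.12, 2.97 and 3.11 with siOCT4 and DMSO, and at 2.95, 3.03 and 3.25 with siOCT4 and POVPC. The order of the groups was that of miR-669c-3p, with no overlap between siNT and siOCT4 arrays nor between the 2 siNT groups, and with the 2 siOCT4 groups overlapping. The 20-base probe was well above background on 2 of the 3 siOCT4-POVPC arrays, and both probes on all arrays of the other groups.

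miR-669j was at 3.72, 3.47 and 3.63 on the siNT-DMSO arrays and at 3.93, 4.01 and 4.09 on the siNT-POVPC arrays. The siOCT4-DMSO arrays gave 2.83, 2.70 and 2.85 and the siOCT4-POVPC arrays 2.71, 2.67 and 2.48. All siNT arrays were again above all siOCT4 arrays, in a narrower span than for the other two. The dim values limit what can be said of miR-669j in siOCT4 cells: of its 15 pairs of probe and array, 15 were well above background in each siNT group, 14 with siOCT4 and DMSO, and 7 with siOCT4 and POVPC. The lowest signal called well above background on a siOCT4-POVPC array was 2.71 to 2.95, within the range of the miR-669j probes there.

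**Figure D1:**
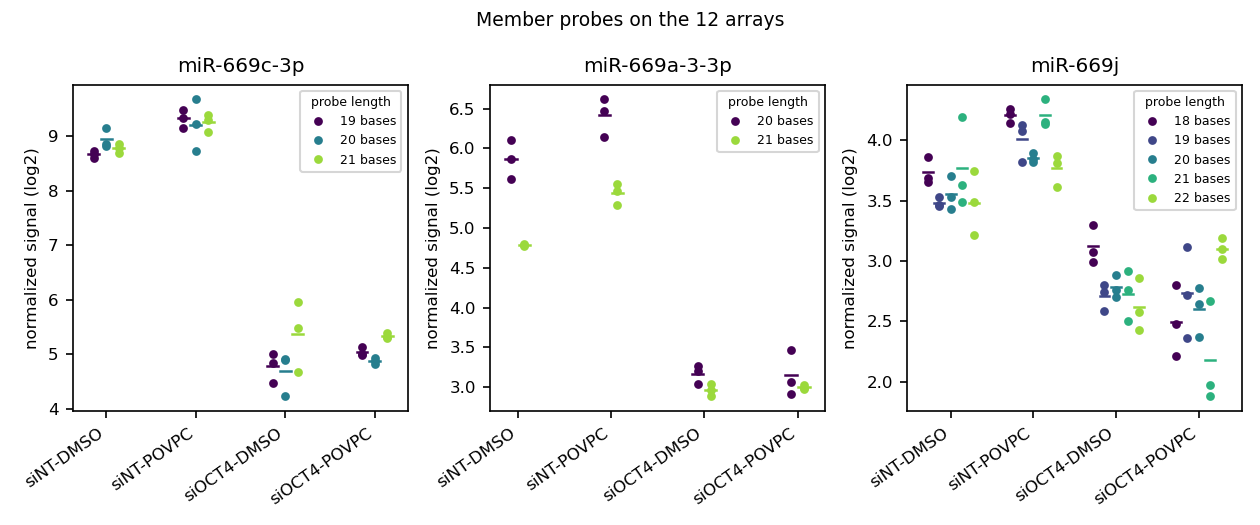
Normalized signal (log2) of the 10 probes on the 12 arrays, in 1 panel per miRNA with its own axis; each point is an array, each line the mean of 3 arrays and the colour the probe's length in bases. In each panel the siNT arrays sit above the siOCT4 arrays for every probe, and the miR-669c-3p panel covers the widest range.

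In order of group means, siNT-POVPC was highest for all 3 miRNAs and siNT-DMSO next. miR-669c-3p averaged 8.79 ± 0.11 (SD, n = 3) in siNT-DMSO, 9.26 ± 0.24 in siNT-POVPC, 4.94 ± 0.43 in siOCT4-DMSO and 5.08 ± 0.04 in siOCT4-POVPC. The means of miR-669a-3-3p were 5.33 ± 0.13, 5.92 ± 0.19, 3.07 ± 0.09 and 3.07 ± 0.16 in the same order. Those of miR-669j were 3.60 ± 0.13, 4.01 ± 0.08, 2.79 ± 0.08 and 2.62 ± 0.13. The siOCT4-DMSO and siOCT4-POVPC means were thus neighbours that differed by no more than the spread of their arrays for miR-669c-3p and miR-669a-3-3p, and the arrays of the 2 groups overlapped for miR-669j too.

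The fall with siOCT4 is the contrast in which the miRNAs were noticed, so its values are given as a description, without p-values. With DMSO, miR-669c-3p fell by 3.85 on the log2 scale (SE 0.26), miR-669a-3-3p fell by 2.26 (SE 0.09), and the difference of miR-669j was -0.81 (SE 0.09). The size thus ran in the order miR-669c-3p, miR-669a-3-3p and miR-669j. Among the probes, the 20-base probe of miR-669c-3p had the largest, -4.25, and the 18-base probe of miR-669j had the smallest difference, -0.61. In limma 6 of the 10 probes were called, which took a fold of at least 1.5 and, after Benjamini-Hochberg adjustment, a p under 0.05, against 1.39% of all 8621 probes tested. All 10 were lower without overlap of the arrays, against 6.75% of all probes. The choice of the probes used this contrast, so nothing is read from either count, nor from the further counts of calls for siOCT4 below.

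The listed probes on either side of the first run of identifiers were also lower with siOCT4. The 18-base and 23-base probes of miR-669c-3p, which were not chosen, differed by -4.09 and -3.06. The 22-, 23- and 24-base probes of miR-669a-3-3p differed by -1.72, -1.61 and -1.80. The fall was therefore seen on all 5 listed probes of each of these miRNAs, and within miR-669a-3-3p the 20-base probe, which fell by 2.69, stood apart from the other 4.

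Under POVPC, miR-669c-3p was 18.1-fold lower in siOCT4 than in siNT cells (log2 difference -4.18, SE 0.14). miR-669a-3-3p was 7.21-fold lower (log2 difference -2.85, SE 0.14) and miR-669j 2.62-fold lower (log2 difference -1.39, SE 0.09). The order of the 3 was that found with DMSO. All 10 probes were called, against 2.67% of all probes, and all 10 were lower without overlap, against 8.66%. The 21-base probe of miR-669j was well above background on 0 of the 3 siOCT4-POVPC arrays, and for it the difference is a bound, at least 2.62-fold lower.

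Slide and siRNA moved together in part. On the slide that held both siRNAs, with siOCT4-DMSO replicates 1 and 2 alone, the miR-669c-3p probes differed by -3.06 to -4.03. The miR-669a-3-3p probes differed by -1.82 and -2.74 and the miR-669j probes by -0.55 to -1.14. Of the 10, 5 were called, against 1.46% of all probes. Under POVPC the siNT arrays lay on 1 slide and the siOCT4 arrays on the other. In a fit of all 12 arrays with the slide as a block the miR-669c-3p probes then differed by -2.88 to -3.84 and all 10 probes were called, as were 7.49% of all probes in that fit. Only siOCT4-DMSO lay on both slides, so the slide term of that fit rests on its replicate 3, the bright array. Slide and siRNA under POVPC therefore cannot be told apart. The size depends on the background treatment. With normexp correction and an offset of 50, which compresses dim signals, the miR-669c-3p probes differed by -1.91 to -2.20 with DMSO. The miR-669a-3-3p probes differed by -0.23 and -0.53 and the miR-669j probes by -0.05 to -0.08. Only the 3 miR-669c-3p probes were called, against 0.418% of all probes. Under POVPC the same correction gave -2.32 to -2.45 for miR-669c-3p, -0.40 and -0.77 for miR-669a-3-3p and -0.06 to -0.17 for miR-669j. There 4 of the 10 were called, against 0.580% of all probes.

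Whether POVPC changed the miRNAs in cells with OCT4 was asked on the 6 siNT arrays, all of 1 slide. The siNT-DMSO arrays also served in the contrast that chose the miRNAs, so the comparisons share these arrays. miR-669c-3p was higher with POVPC by 0.47 on the log2 scale (SE 0.15), miR-669a-3-3p by 0.60 (SE 0.13) and miR-669j by 0.40 (SE 0.09). Each difference separated the 3 treated from the 3 vehicle arrays. None of the 10 probes was called in limma (adjusted p from 0.174 to 0.780), where 0.220% of all probes were, and none in an equal-variance test of single probes after the same adjustment. Under normexp the probes differed by 0.23 to 0.54 for miR-669c-3p, 0.17 and 0.25 for miR-669a-3-3p and 0.01 to 0.06 for miR-669j.

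At an unadjusted p under 0.05, 7 of the 10 probes differed, all higher, against 9.04% of all probes in either direction. In 7 of the 10 the treated arrays lay above the vehicle arrays without overlap, against 7.63% of all probes. The median difference of the 10 was 0.47, and that of all probes -0.00. The 10 probes thus stood on 1 side of the bulk of the array, but as nested probes of 3 miRNAs they do not give 10 separate observations.

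The 19-base probe of miR-669c-3p was at 8.60, 8.67 and 8.72 with DMSO and at 9.33, 9.49 and 9.15 with POVPC. Its difference was 0.66 (SE 0.13, 95% interval 0.35 to 0.97, limma adjusted p = 0.215). The 20-base probe of the same miRNA was at 8.82, 8.85 and 9.15 with DMSO and at 9.67, 9.22 and 8.73 with POVPC. These arrays overlapped, and the interval of the difference was -0.30 to 0.83. Probes of miR-669c-3p that differ by 1 base therefore gave different separations on the same arrays.

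The 21-base probe of miR-669a-3-3p was at 4.77, 4.79 and 4.80 with DMSO and at 5.55, 5.47 and 5.29 with POVPC. It had the smallest adjusted p of the 10, with a difference of 0.65 (SE 0.12, 95% interval 0.36 to 0.93, limma adjusted p = 0.174). Its 20-base partner differed by 0.55 (SE 0.18). In miR-669j the 18-, 19- and 20-base probes did not overlap between the groups, with differences of 0.47, 0.53 and 0.30. The 21- and 22-base probes did overlap, with differences of 0.44 and 0.28.

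In siOCT4 cells the probes did not move one way with POVPC. Of the 10, 5 had a higher and 5 a lower mean, from -0.62 for the 18-base to 0.48 for the 22-base probe of miR-669j. None was called (limma adjusted p from 0.254 to 0.973), and the share of all probes called was 0%. At an unadjusted p under 0.05, 3 differed, against 12.7% of all probes. Without overlap, the 22-base probe of miR-669j was higher and the 18-base probe lower, against 22.4% of all probes in either direction. The 3 probes with a low unadjusted p were all of miR-669j and did not share a direction.

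The 18-base probe of miR-669j was at 3.30, 3.07 and 2.99 with siOCT4 and DMSO and at 2.22, 2.80 and 2.47 with siOCT4 and POVPC, where 1 of 3 arrays was well above background. The 22-base probe was at 2.58, 2.43 and 2.86 with DMSO and at 3.19, 3.10 and 3.02 with POVPC, and was well above background on 2 and on 3 arrays. The 2 probes pair with the same end of the same miRNA and differed in direction. With a floor of 8 in place of 1 before the logarithm their differences were only -0.12 and 0.10. With normexp they were -0.05 and 0.02. For the 21-base probe, which no siOCT4-POVPC array showed well above background, no fold is given. The 3 probes of miR-669c-3p, bright enough on all arrays, differed by -0.04 to 0.26, with intervals reaching from -0.70 to 0.66.

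This comparison spans both slides, and its values for miR-669c-3p rest on the bright array. On the slide of the siOCT4-POVPC arrays alone, where siOCT4-DMSO replicate 3 is the only vehicle array, the level of miR-669c-3p was 4.47 with DMSO and 5.06 to 5.12 with POVPC. In the fit with the slide as a block the 3 probes differed by 0.56 to 0.66 (adjusted p from 0.0622 to 0.214). Without siOCT4-DMSO replicate 3 they differed by -0.38 to 0.11, so the direction for miR-669c-3p in siOCT4 cells was not settled.

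**Figure D2:**
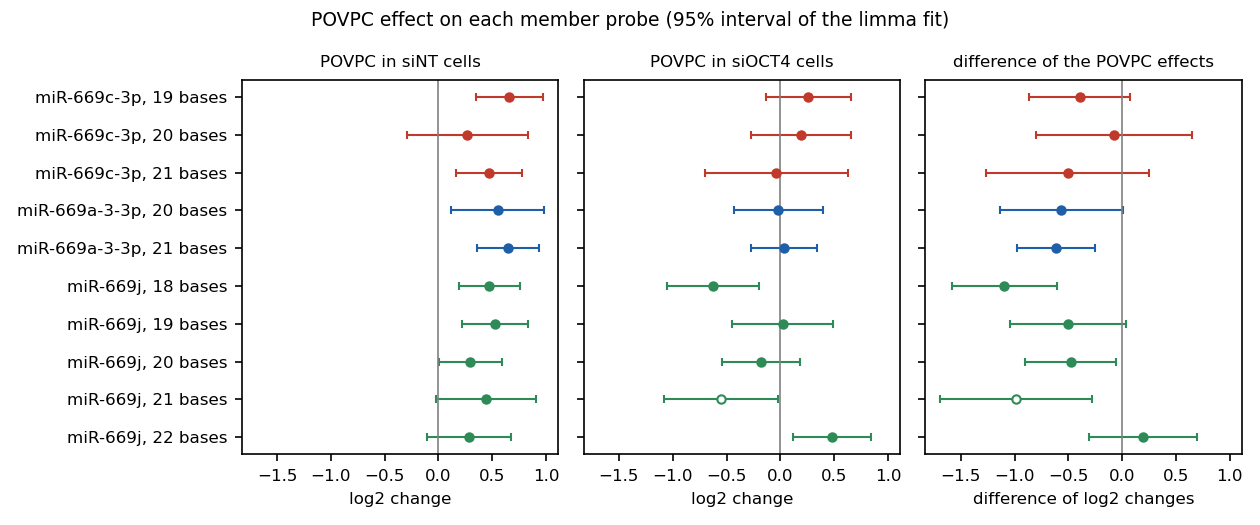
Log2 change with POVPC of each of the 10 probes in siNT cells, in siOCT4 cells, and the difference of these changes (siOCT4 minus siNT), with 95% intervals from limma; the open marker is the probe that no siOCT4-POVPC array showed well above background. All 10 points are above 0 in siNT cells, 5 are in siOCT4 cells, and 9 of the 10 differences are below 0, none of them called.

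The change with POVPC was compared between siOCT4 and siNT cells over all 12 arrays. The difference of the changes was below 0 for 9 of the 10 probes, from -1.10 to 0.20 with a median of -0.51, where the median of all probes was -0.02. None was called (limma adjusted p from 0.880 to 0.993), as was 0% of all probes, and the equal-variance test called none. At an unadjusted p under 0.05, 4 differed, against 5.08% of all probes. A lower response in siOCT4 cells was therefore not established for any probe.

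The largest difference of changes, that of the 18-base probe of miR-669j, was -1.10 (SE 0.22, 95% interval -1.58 to -0.61), with an adjusted p of 0.880 in limma. For the 21-base probe of miR-669a-3-3p it was -0.61 (SE 0.17, 95% interval -0.97 to -0.25), also with an adjusted p of 0.880. With a floor of 8 in place of 1 before the logarithm, this probe alone was called (-0.65, adjusted p = 0.0271). The miR-669c-3p probes had differences of -0.08 to -0.51, and with the slide as a block the 20- and 21-base probes turned to 0.37 and to 0.19. Without siOCT4-DMSO replicate 3 the differences of the 3 probes were -0.30 to -0.85, so they depend on that array and on the slide.

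Whether the miRNAs moved together was asked over arrays within each siRNA arm, since over all 12 arrays the fall with siOCT4 fixes the answer. On the 6 siNT arrays miR-669a-3-3p and miR-669c-3p had a Pearson r of 0.967 (exact permutation p = 0.00278, adjusted over 6 relations 0.0167). Spearman's rho was 0.943 (exact permutation p = 0.0167, adjusted 0.1). With 75th percentile scaling r was 0.972 but no longer passed (exact permutation, adjusted p = 0.117). The pairings crossed the 2 treatments, which all 3 miRNAs separated on the siNT arrays. The p-values on these arrays therefore include the step with POVPC and cannot show a relation within a treatment. Without the 2 arrays farthest from the median of miR-669a-3-3p, r was 0.876. With the mean of each treatment group taken off, r was 0.916. This value was not tested, nor set beside that of other pairs of probes, so nothing is concluded from it.

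miR-669c-3p and miR-669j, the pair of the original choice, had an r of 0.654 on the siNT arrays (rho 0.600, exact permutation p = 0.181 and 0.242, adjusted 0.361 and 0.483), and 0.647 without the 2 farthest arrays. With the group means taken off, r was -0.527. The positive value was thus not seen once the step between the treatments was removed. For miR-669a-3-3p and miR-669j, r was 0.819 (rho 0.714, exact permutation p = 0.0681 and 0.136, adjusted 0.204 and 0.408), 0.924 without the 2 farthest arrays and -0.152 with group means taken off.

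On the 6 siOCT4 arrays, r was -0.132 for miR-669a-3-3p and miR-669c-3p, -0.356 for miR-669a-3-3p and miR-669j and -0.319 for miR-669c-3p and miR-669j (exact permutation, adjusted p = 0.832, 0.577 and 0.577). The values of rho were -0.143, -0.143 and 0.0857 (exact permutation, adjusted p = 0.919 for each). Without the 2 farthest arrays r was -0.245, 0.887 and 0.435, and without siOCT4-DMSO replicate 3 it was 0.132, -0.545 and 0.721. No relation was found on these arrays, and the sign changed with the arrays kept.

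**Figure D3:**
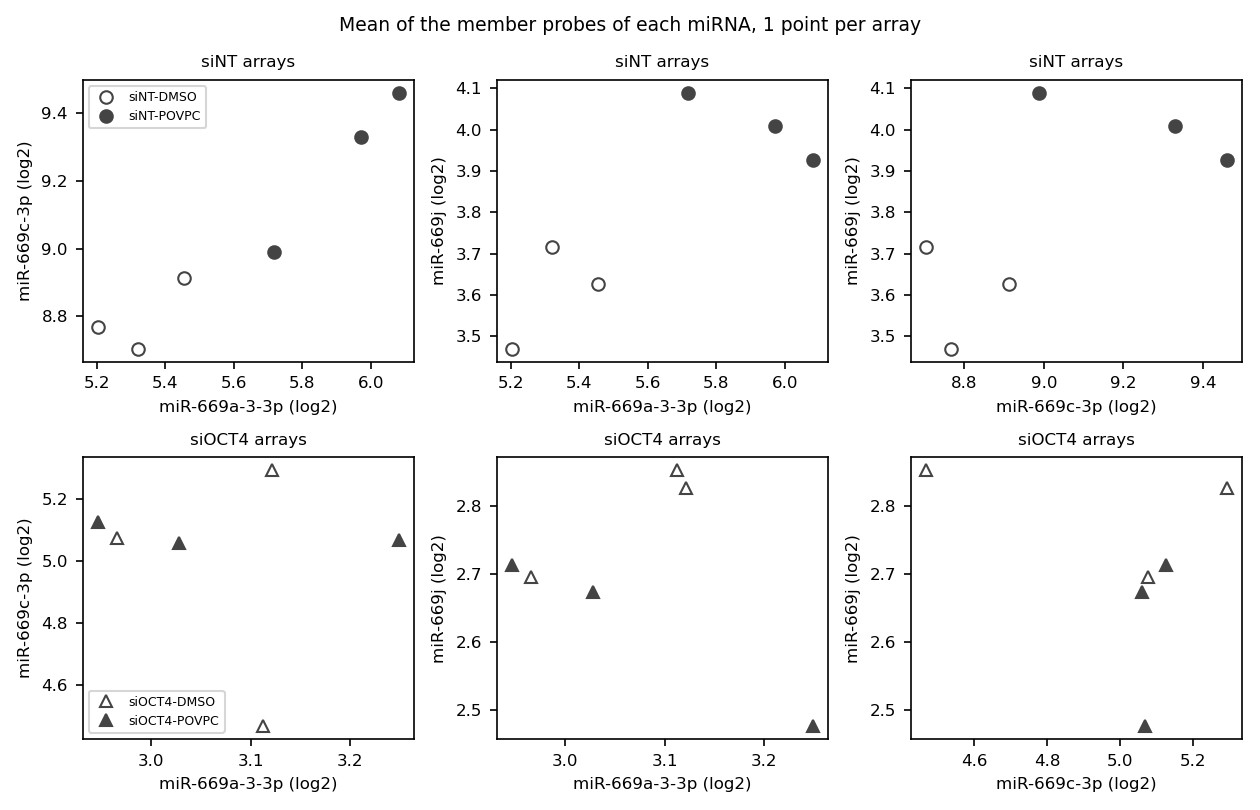
Level (log2, mean of the chosen probes) of 1 miRNA against another, 1 point per array, with siNT arrays in the upper and siOCT4 arrays in the lower row and POVPC arrays filled. On the siNT arrays miR-669a-3-3p and miR-669c-3p lie along a line (r 0.967). For the pairs with miR-669j the filled points lie above the open ones and fall from left to right.

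Over all 12 arrays, likeness of 2 profiles was taken as the root mean square difference of centred log2 values, as a description. The profile of miR-669c-3p differed by 0.760 from that of miR-669a-3-3p and by 1.48 from that of miR-669j. The probes of other miRNAs with the profiles nearest to miR-669c-3p belonged to miR-7065-5p (0.306), miR-5615-3p (0.352 and 0.543), miR-5618-3p (0.521) and miR-466g (0.522). Nearest to miR-669a-3-3p were probes of miR-466g (0.168 and 0.275), miR-467g (0.216), miR-669d-2-3p (0.219) and miR-669b-3p (0.272). All carry the family names of the cluster, but Mir467g is not among the 71 miRNA genes within Sfmbt2. Nearest to miR-669j were miR-6390 (0.119 and 0.163), miR-7065-5p (0.138), miR-3073b-3p (0.170) and miR-466g (0.190). The search covered only probes well above background, and with a value, on all 12 arrays, 5082 to 5087 of them once those of the miRNA itself were left out. Within them each miRNA had nearer profiles among other miRNAs than among the other chosen miRNAs. The root mean square of the centred profile itself was 2.02 for miR-669c-3p, 1.30 for miR-669a-3-3p and 0.578 for miR-669j. The size of the siOCT4 fall, by which the miRNAs were chosen, thus enters the measure, and nothing about moving together is read from it.

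The other miRNAs of the miR-466, miR-467 and miR-669 families in the study's lists were 17, each with 5 probes. They were taken by name, and Mir466i, Mir466q and Mir467g are not among the 71 miRNA genes within Sfmbt2. The lists had been drawn up from these arrays, so the falls of the 17 are not independent evidence of a direction. With siOCT4 and DMSO 31 of the 85 probes were called, all lower, in 14 of the 17 miRNAs, against 1.39% of all probes. The count was 18 without siNT-DMSO replicate 3, 13 with the floor of 8, 4 with normexp and 1 in the equal-variance test. Of all probes 0.835%, 0.708%, 0.418% and 0.174% were called in the same order. The median over the 85 was -0.69, beside 0.04 for all probes. By the median of its probes miR-669b-3p fell most (-2.41) and miR-466o-3p had the smallest difference (-0.22). No median of the 17 reached the mean over the 3 chosen probes of miR-669c-3p (-3.85). Those of miR-669b-3p and miR-669m-3p (-2.31) lay past the mean over the 2 chosen probes of miR-669a-3-3p (-2.26). A median over 5 probes and a mean over the chosen probes are unlike measures.

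Under POVPC 36 of the 85 probes were called lower in siOCT4 cells (10 with normexp), in 15 of the 17 miRNAs. Of all probes 2.67% were called (0.580% with normexp). The median of the 85 was -0.51, beside 0.02 for all probes. With POVPC in siNT cells none of the 85 was called in limma, and 2 had an unadjusted p under 0.05 with a fold of 1.5, as did 2.45% of all probes. Their median was 0.22, and all 17 miRNA medians were above 0, from 0.05 for miR-669l-3p to 0.47 for miR-466g. With POVPC in siOCT4 cells none was called, the median was 0.26, and 15 of the 17 medians were above 0, from -0.12 for miR-669b-3p to 0.62 for miR-669a-3p.

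miR-669a-3p, 1 base different from miR-669a-3-3p, gives a direct comparison. Its 20-base probe was at 6.83 ± 0.23 (SD, n = 3) in siNT-DMSO, 6.85 ± 0.19 in siNT-POVPC, 4.35 ± 0.28 in siOCT4-DMSO and 4.84 ± 0.03 in siOCT4-POVPC. Its 21-base probe was at 4.92 ± 0.18, 5.00 ± 0.07, 4.29 ± 0.24 and 4.84 ± 0.13 in the same order. With siOCT4 and DMSO the 20-base probe differed by -2.48, and the median of its other 4 probes was -0.58. For miR-669a-3-3p the same values were -2.69 and -1.76.

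A gap between the shortest and the longer probes was seen in other miRNAs of the family too. With siOCT4 and DMSO the shortest probe had the lowest difference of its miRNA in 10 of the 17 other miRNAs, and in 8 it lay below the median of the other 4 probes by over 1 on the log2 scale. The widest gap was in miR-669l-3p, with -3.04 on its 19-base probe and a median of -0.50 on the other 4. In miR-466f-3p and miR-466i-3p the shortest probe fell least, with -0.66 and -0.69 beside medians of -1.15 and -1.16. The lowest values of miR-467g (-2.16, 19-base probe) and miR-669p-3p (-1.92, 21-base probe) were not on the shortest probe. In miR-669c-3p, with all 5 listed probes, the shortest had -4.09 and the other 4 a median of -3.65. The shortest probe of miR-669j had -0.61 and the other 4 a median of -0.82, in the opposite order.

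Under POVPC the counts were 10 of 17 lowest and 9 lower by over 1. In miR-466g, counted among these, all 5 probes were called as well. For miR-669j the order turned, with -1.71 on the shortest probe and a median of -1.27 on the other 4. Which molecules the shortest probes captured was not tested.

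**Figure D4:**
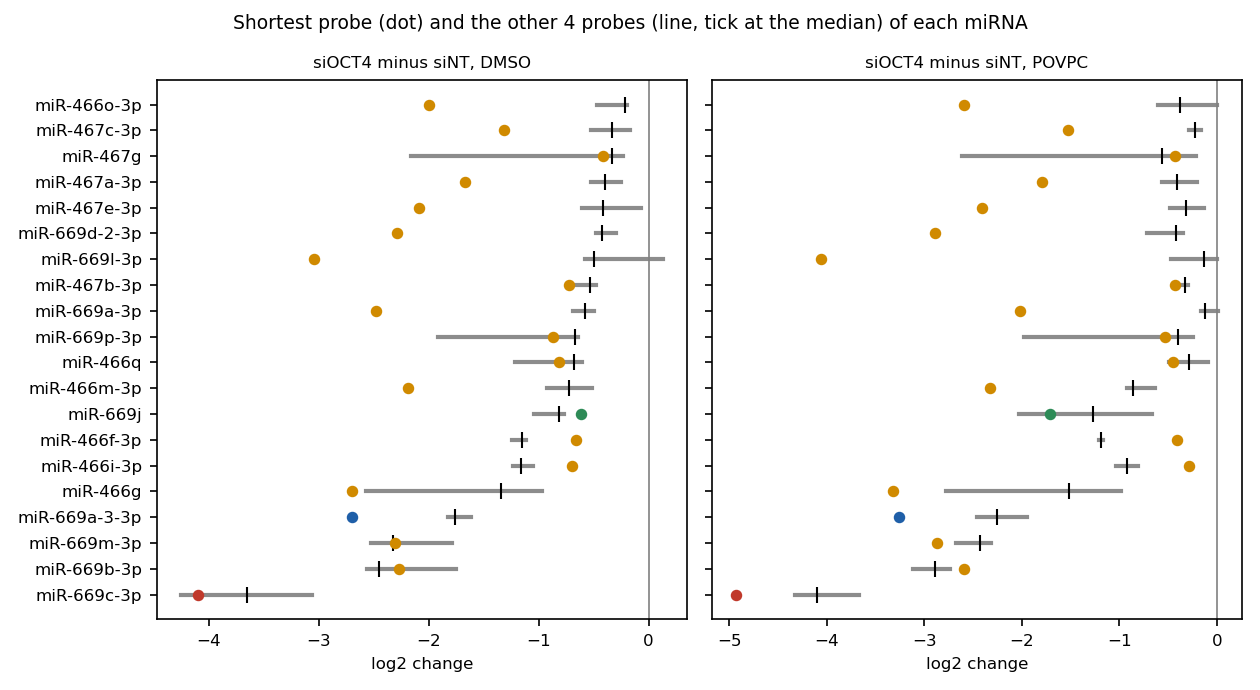
Log2 difference between siOCT4 and siNT cells, with DMSO and with POVPC, of the shortest probe (dot) and of the other 4 probes (line over their range, tick at the median) of 20 miRNAs; red is miR-669c-3p, blue miR-669a-3-3p and green miR-669j. Dots far to the left of their line, as for miR-669l-3p (-3.04 against -0.50 with DMSO), mark miRNAs in which the shortest probe differed most.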

How the data were processed

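Small RNA of 12 samples was labelled with Cy3 at its 3′ end and hybridized to 1-colour Arraystar mouse small RNA arrays, without reverse transcription or PCR. The deposited scanner files hold intensity values per spot, written by Agilent Feature Extraction (version 11.0.1.1 per the labels), with the background subtracted and no normalization between arrays. A series table, also deposited, gives log2 values that the authors quantile-normalized in GeneSpring GX, and it served as an alternative; how its dimmest values were set was not stated. Groups came from the source name of each sample. The descriptions of 9 of the 12 samples name non-targeting siRNA and DMSO and were not followed.

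From the processed signals, spots marked as outliers were left out (14 to 23 per array), spots of 1 probe were averaged, the arrays were quantile-normalized together, values were floored at 1 and log2 was taken. The 8621 of 9709 miRNA probes well above background on at least 3 of 12 arrays were fitted in limma 3.58.1 (R 4.3.3, lmFit and eBayes, two-sided) on the 6 arrays of each comparison, and on 12 for the difference of changes. All 10 chosen probes passed this filter, which the arrays of a high group can satisfy alone. A probe counted as called with a fold of at least 1.5 and, after Benjamini-Hochberg adjustment, a p under 0.05. Correlations used all 720 pairings. Where no array of a group showed a probe well above background, its difference was given as a bound.

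The members and the family list were chosen with earlier results of these data known. Named were the 10 probes, the other listed probes of the same miRNAs, the largest and smallest of the other listed family members, and the 5 nearest profiles per miRNA. Probe names and sequences came from lists supplied with the study, which name 520 probes, and gene names from RefSeq; coordinates were not used, because the builds differ. The authors' fold changes and p-values in those lists were not used. Percentile scaling (75th, over all or over detected probes), the background correction, the floor, the filter, the thresholds, the test, the slide, the replicate number and each array left out were alternatives. The files hold no mean signal, so normexp used the median signal. Correlations of deviations from group means and the family counts under the alternatives were added after seeing the data. No array was identical to another. The number of arrays limits the precision, and with 3 against 3 an exact test of 1 value could not go below 0.1.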

Additional observations from a re-analysis of the deposited data

Results flagged for a closer look

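The 18-base probe of miR-669j (ASMM10SMR20MIRNA100002798TV1) was higher with POVPC on all 3 siNT arrays and lower on all 3 siOCT4 arrays. Its change with POVPC was 0.47 (SE 0.12) in siNT cells and -0.62 (SE 0.19) in siOCT4 cells on the log2 scale, a difference of -1.10 with an unadjusted p of 0.000354 and an adjusted p of 0.880 in limma. Of the 3 siOCT4-POVPC arrays 1 showed it well above background. With the floor of 8 its change in siOCT4 cells was -0.12 and the difference of changes -0.60. With normexp these values were -0.05 and -0.11. The cause of this dependence was not tested. The 22-base probe of the same miRNA had a difference of 0.20.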

How the results depend on the processing

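No called value changed sign under any alternative, but uncalled differences did, as that of the changes with POVPC for the 21-base miR-669c-3p probe. In siNT cells all 10 probes stayed above 0 with POVPC under every alternative run. For the miR-669j probes the difference with normexp was 0.01 to 0.06 only. At an unadjusted p under 0.05 with a fold of 1.5, the thresholds of the study's methods, the members called numbered 2 for POVPC in siNT cells, 1 for POVPC in siOCT4 cells, 3 for the difference of changes and 10 for siOCT4 with DMSO, and the other family probes 2, 8, 3 and 52; of all probes 2.45%, 5.13%, 3.53% and 4.81% passed the same thresholds. With normexp, 3 and 4 members and 4 and 10 family probes were called for siOCT4 with DMSO and with POVPC. Of all probes 0.418% and 0.580% were. The floor of 8 gave 1 member for the difference of changes and 13 family probes for siOCT4 with DMSO. In these fits 0.0116% and 0.708% of all probes were called. Requiring signal on all 12 arrays left 4 members to test, all 4 called under POVPC, as were 158 of the 5094 probes kept. For POVPC in siOCT4 cells, 13 family probes were called with the slide as a block, where 9.96% of all probes were, and 1 in a fit of all 12 arrays, where 0.580% were. The equal-variance test called 1 family probe for siOCT4 with DMSO, and 0.174% of all probes. The causes were not tested.

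Leaving out 1 array at a time gave 0 to 0 members for both POVPC comparisons and their difference. For siOCT4 it gave 5 to 5 members with DMSO and 8 to 9 with POVPC, and 18 to 29 and 31 to 34 family probes. Of all probes 0.835% to 1.94% and 1.90% to 2.24% were called for siOCT4. The 18 was without siNT-DMSO replicate 3. With the replicate number as a block, 0, 0, 0, 5 and 8 members were called in the same order. For siOCT4 with DMSO and with POVPC 1.32% and 1.97% of all probes were called. For POVPC in siNT cells same-numbered arrays deviated with r of -0.241, 0.425 and 0.329, and differently numbered arrays with r from -0.533 to 0.326. For siOCT4 with DMSO the same-numbered values were -0.043, 0.351 and 0.278. Whether the numbers mark a pairing was therefore not settled. The relation of miR-669a-3-3p and miR-669c-3p on siNT arrays had r 0.972 with 75th percentile scaling (exact permutation, adjusted p = 0.117). On siOCT4 arrays without siOCT4-DMSO replicate 3, r was 0.132 for that pair and 0.721 for miR-669c-3p and miR-669j. Over deviations from group means on siNT arrays, r was -0.152 for miR-669a-3-3p and miR-669j and -0.527 for miR-669c-3p and miR-669j. Dim signal limits miR-669j most, as 8 of its 15 pairs of probe and siOCT4-POVPC array were not well above background.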
